A study of Homo sapiens with 8 samples.

Results

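PI3, SLPI, LCN2, RNASE7 and DEFB1 are 5 genes for secreted antiproteases and antimicrobial proteins of the skin, chosen by their function and by name from a table of 28518 gene rows. RNA was counted in 8 libraries of the immortalised human keratinocyte line HaCaT, in cells whose own CARD14 had been knocked out. All groups share that knockout, and each was transfected with a plasmid that encodes 1 form of CARD14 joined through a T2A self-cleaving peptide to eGFP, so that green cells could be sorted 24 h later. The forms were R820W, N737H, I593T and wild type (WT), with 2 libraries each, titled A and B. The series describes the 3 variants as hypomorphic and asks which pathways they activate differently from WT. It speaks of 2 independent experiments but no label says which letter belongs to which. Whether the knockout line was 1 clone is not given in the sources used here, and no library without a CARD14 plasmid was analysed here. RNA came from all sorted cells together, so a change in the share of cells that express a gene and a change in its RNA per cell cannot be told apart.

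Keratinocytes secrete these proteins as part of the chemical barrier of the epidermis. Elafin (PI3) and the secretory leukocyte protease inhibitor (SLPI) carry WAP domains and block neutrophil serine proteases, and elafin is also cross-linked into the cornified envelope by transglutaminases. Lipocalin-2 (LCN2) starves bacteria of iron by binding their siderophores, ribonuclease 7 (RNASE7) is an antimicrobial RNase of healthy skin, and beta-defensin 1 (DEFB1) is a small antimicrobial peptide of many epithelia. Several of them are induced in inflamed skin by IL-1 and IL-17 signals that act through NF-kB, IkB-zeta and C/EBP factors, and CARD14 is itself a scaffold that recruits BCL10 and MALT1 to activate NF-kB.

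Upstream sequence from the RefSeq promoter table (GRCh38.p14) is printed for 2 of the 5 members, LCN2 and RNASE7. PI3, SLPI and DEFB1 had no printed sequence. The 250 bases before each start are shown because NF-kB, AP-1 and C/EBP are factors known to act on such genes. Capitals mark matches on either strand to GGGNNNNNCC (a broad kappaB pattern), TGANTCA (AP-1) and TTNNGNAA (C/EBP). LCN2 lies on chromosome 9, plus strand, and its window is chr9:128149203-128149452. RNASE7 lies on chromosome 14, plus strand, and its window is chr14:21042112-21042361. The windows end at the RefSeq starts, which lie 382 bases (LCN2) and 136 bases (RNASE7) downstream of the first base of each gene in GENCODE v29, so by that annotation they lie wholly (LCN2) or partly (RNASE7) inside the genes.
LCN2: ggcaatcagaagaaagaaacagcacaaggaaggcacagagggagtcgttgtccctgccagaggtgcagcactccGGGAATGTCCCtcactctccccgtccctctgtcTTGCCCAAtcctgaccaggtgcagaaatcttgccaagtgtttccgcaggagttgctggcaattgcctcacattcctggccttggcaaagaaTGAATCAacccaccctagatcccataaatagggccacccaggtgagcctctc
RNASE7: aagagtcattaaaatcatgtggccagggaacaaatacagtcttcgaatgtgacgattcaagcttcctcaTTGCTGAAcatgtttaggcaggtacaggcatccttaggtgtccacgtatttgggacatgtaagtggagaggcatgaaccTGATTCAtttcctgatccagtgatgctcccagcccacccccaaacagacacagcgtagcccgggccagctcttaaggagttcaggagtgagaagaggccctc
The LCN2 window held a kappaB match that read on both strands and began 176 bases before the start, a C/EBP match from 143 to 136 bases before it and an AP-1 match from 52 to 46. The RNASE7 window held a C/EBP match from 181 to 174 bases before the start and an AP-1 match from 102 to 96, and these kappaB letters were not in it. Over all 35116 windows of the same length in the table, 54.4% held the kappaB pattern, 6.57% the AP-1 pattern and 33.2% the C/EBP pattern. A match describes letters and is not evidence of binding.

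The libraries held 17892608 to 24629860 counts. Levels are given in CPM, counts scaled to a common normalised library size, and differences were tested with edgeR's quasi-likelihood test, with p-values adjusted by Benjamini-Hochberg over 14834 genes and a threshold of 0.05. CARD14 RNA was measured at 1190 (A) and 1410 CPM (B) with R820W, at 444 and 1005 with N737H, at 500 and 1394 with I593T and at 1127 and 978 with WT, and did not pass in any comparison with WT. These reads include the plasmid's transcript, so they do not check the knockout. No gene of the 14834 passed against WT for any variant or for the 3 variants averaged, which makes the background share of called genes 0% in each of these 4 comparisons. Genes with an unadjusted p under 0.05 numbered 154 for R820W, 362 for N737H, 212 for I593T and 195 for the mean. That is fewer than the 742 that chance would give, but these fits have no term for the letter. Their spread therefore holds the difference between the letters. With a letter term in edgeR the genes numbered 384, 670, 500 and 527, and 0 passed in each comparison. Between the letters, in contrast, 480 genes passed (3.24%), and the leading principal component, with 33.3% of the variance, split the A from the B libraries. All 7 keratinocyte markers were expressed, and the neutrophil markers, which matter here because neutrophils also make LCN2 and SLPI, summed to between 0.0824 and 1.92 CPM in every library. The leukocyte marker PTPRC averaged 0.0653 CPM and the fibroblast marker VIM 0.237 CPM. In the leukocyte, fibroblast and melanocyte lists only CD68 and CD74, FN1, and MITF, PMEL and MLANA averaged above 1 CPM, while all 6 glandular markers, among them KRT8 and KRT18, did so.

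Of the 5 members, 4 passed the filter on low counts, and DEFB1 did not. Scaled to exon length (GENCODE v29), SLPI averaged 166 CPM per kb of exon and PI3 140, LCN2 44.8 and RNASE7 11.9. The ranges over the 8 libraries were 127 to 224 for SLPI, 46.8 to 239 for PI3, 24.5 to 54.6 for LCN2 and 8.09 to 22.1 for RNASE7, so the ranges of SLPI and PI3 overlapped, as did those of PI3 and LCN2, while LCN2 stood above RNASE7 throughout. PI3 varied most, with its highest library 5.10 times its lowest, against 2.74 times for RNASE7, 2.23 for LCN2 and 1.77 for SLPI.

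**Figure D1:**
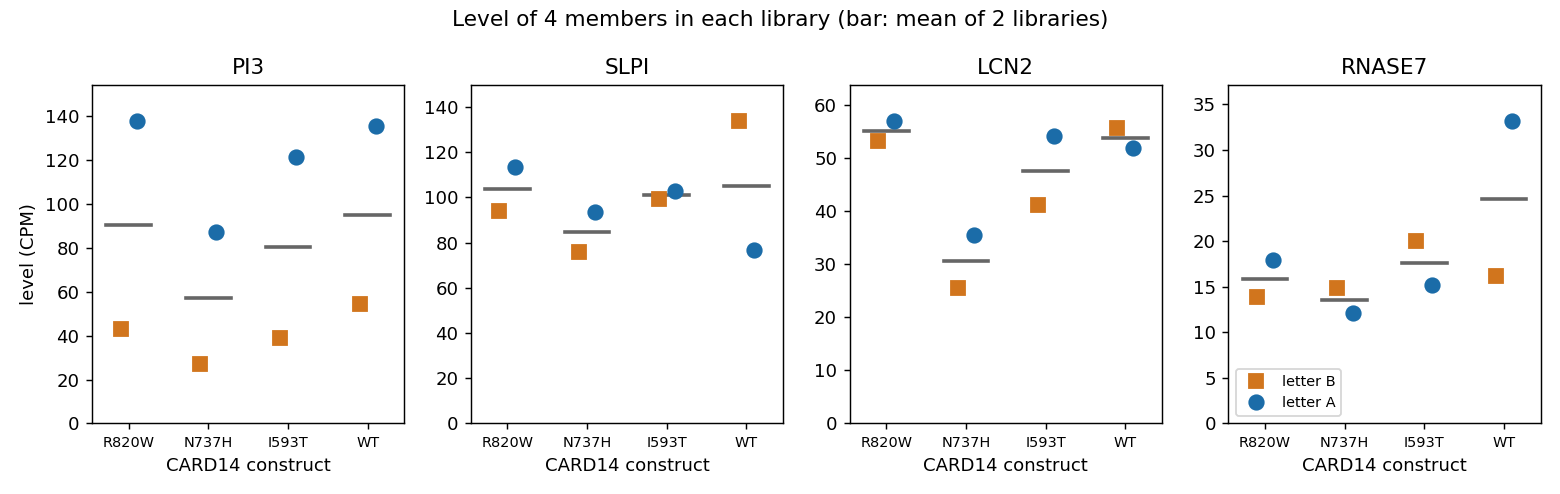
Level in CPM (linear axis from 0) of PI3, SLPI, LCN2 and RNASE7 in each of the 8 libraries by CARD14 construct, with letter B as squares, letter A as circles and a grey bar at the mean of the 2 libraries. PI3 separates by letter in all constructs, and LCN2 with N737H (35.5 and 25.5 CPM) lies under the other 6 libraries. Of all tested genes, 7.24% had N737H lowest of the 4 constructs in A and in B, a looser order.

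PI3, the elafin gene, differed far more between the letters than between the constructs. It stood at 138 CPM in A and 42.9 in B with R820W, at 87.2 and 27.0 with N737H, at 121 and 39.0 with I593T and at 135 and 54.4 with WT. All 4 B libraries, at 27.0 to 54.4 CPM, lay below all 4 A libraries, at 87.2 to 138 CPM. With construct as a term in the fit, PI3 was lower in B by a log2 fold change of -1.58 ± 0.10 (SE, 4 libraries a letter), a ratio of 0.334 (edgeR adjusted p = 0.00287). It was the only one of the 4 tested members that passed this test, where 3.24% of all genes passed, and the only one whose letters did not overlap with B below, where 10.0% of all genes did so. The difference ran from -1.32 with WT to -1.69 with N737H on the log2 CPM scale, so every construct showed it. The call did not hold without the A library of R820W (log2 fold change -1.54, adjusted p = 0.0573). The letters also differed for FN1, a matrix gene in the fibroblast list (165 CPM in B against 399 in A, log2 fold change -1.29 ± 0.11, adjusted p = 0.00466), while VIM and COL1A1 of that list averaged 0.237 and 0.295 CPM. Its part in the PI3 difference was not tested.

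Set against WT, the spread of PI3 between the letters exceeded every difference between constructs. The group means were 90.3 ± 67.1 CPM for R820W, 57.1 ± 42.6 CPM for N737H and 80.2 ± 58.3 CPM for I593T, against 94.9 ± 57.3 with WT (SD, n = 2 each). R820W had a log2 fold change of -0.07 ± 0.78 (SE), N737H one of -0.73 ± 0.79 and I593T one of -0.24 ± 0.78, all with an edgeR adjusted p of 1.00. These fits have no term for the letter, so the SE holds the difference between the letters. With that term added, DESeq2 called PI3 for N737H (-0.82, adjusted p = 0.00852), and edgeR did not (-0.82, adjusted p = 0.782). The main fit has no letter term, since no label says that the letters are the 2 experiments. Over all tested genes the deviations by letter hardly correlated for WT and N737H (0.024). For the other pairs of groups they correlated at 0.31 to 0.41. Within the letters the N737H library was the lowest of the 4 constructs both times, at -0.63 against WT in A and -1.01 in B on the log2 CPM scale. I593T was at -0.16 in A and -0.48 in B, and R820W at 0.02 in A and -0.34 in B. Without the A library of WT the N737H value was 0.13, and without the B library of WT it was -1.25.

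SLPI, which inhibits neutrophil elastase and cathepsin G and protects epithelia at wounds, stood in opposite order to WT in the letters. In A the R820W library had 113 CPM, the N737H library 93.7 and the I593T library 103, against 76.6 with WT. In B it was at 94.1, 75.7 and 99.5 CPM with R820W, N737H and I593T, against 134 with WT. All 3 variants were thus above WT in A and below it in B, an order that 14.4% of all tested genes shared. A test of that difference between the letters, chosen after the values were seen, called none of the 4 members, where 0.142% of all genes were called (SLPI edgeR adjusted p = 0.126). The WT libraries were at both ends of the range of SLPI but for N737H in B, and the 6 variant libraries spanned 75.7 to 113 CPM. Averaged over the letters, the means were 104 ± 13.6 CPM for R820W, 84.7 ± 12.7 CPM for N737H and 101 ± 2.49 CPM for I593T, against 105 ± 40.4 with WT (SD, n = 2 each). The log2 fold changes were -0.02 ± 0.26, -0.31 ± 0.26 and -0.05 ± 0.26 (SE) for R820W, N737H and I593T, with 95% intervals of -0.62 to 0.58, -0.91 to 0.29 and -0.65 to 0.55, and none passed (edgeR adjusted p = 1.00 each). Between the letters SLPI did not differ beyond its spread (101 ± 24.2 CPM in B and 96.7 ± 15.6 in A, SD, n = 4 each, log2 fold change 0.04 ± 0.19 SE, edgeR adjusted p = 0.921).

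**Figure D2:**
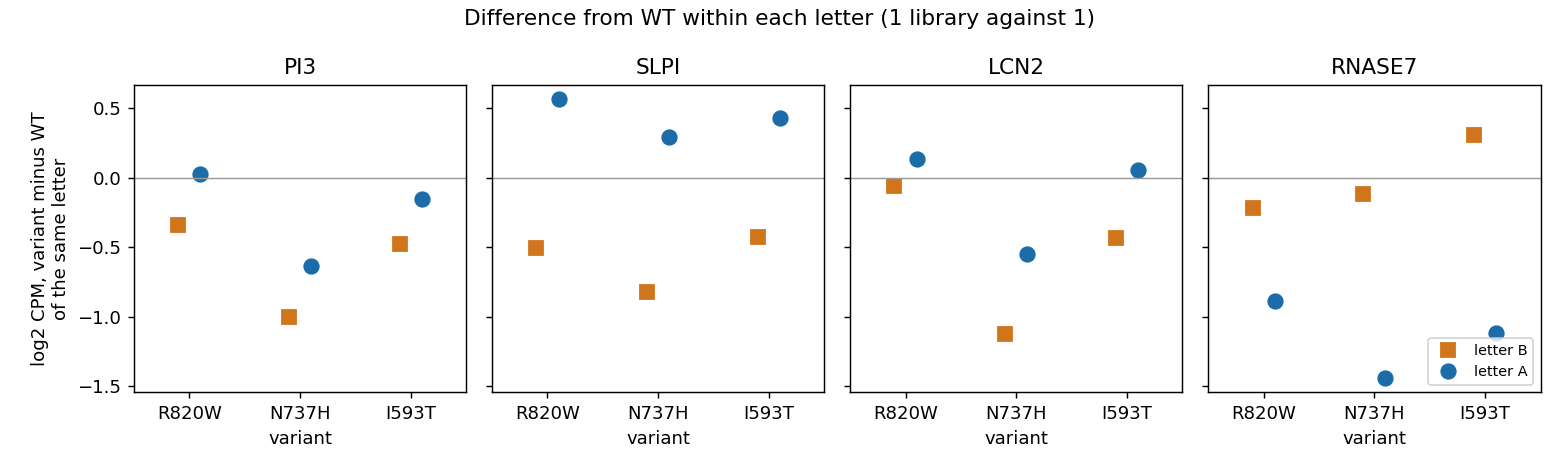
Difference in log2 CPM between each variant and the WT library of the same letter for 4 members, with letter B as squares and letter A as circles. Each point is 1 library against 1. SLPI lies above 0 in A and below 0 in B for all variants, PI3 and LCN2 with N737H lie below 0 in both letters, and RNASE7 lies furthest below 0 in A.

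LCN2, the siderophore-binding lipocalin, had its lowest values with N737H. It stood at 56.9 and 53.2 CPM with R820W (A and B), at 35.5 and 25.5 with N737H, at 54.0 and 41.1 with I593T and at 51.9 and 55.6 with WT. Both N737H libraries lay below all other 6, the lowest of which was the B library of I593T at 41.1 CPM. The share of all genes with this order was not computed. The looser order, with N737H lowest of the 4 constructs in A and in B, held for 7.24% of all tested genes. The group means were 55.03 ± 2.60 CPM for R820W, 30.5 ± 7.08 CPM for N737H and 47.6 ± 9.12 CPM for I593T, against 53.7 ± 2.63 with WT (SD, n = 2 each). The log2 fold change of N737H against WT was -0.82 ± 0.21 (SE, 95% interval -1.31 to -0.33), a ratio of 0.567. Its unadjusted edgeR p was 0.00503, and it did not pass (adjusted p = 1.00). The value was -0.55 in A and -1.12 in B on the log2 CPM scale, and leaving out any 1 library kept it between -1.10 and -0.58. R820W and I593T had log2 fold changes of 0.03 ± 0.21 and -0.18 ± 0.21, with intervals of -0.45 to 0.52 and -0.66 to 0.31, and their libraries overlapped those of WT. In the order of the means R820W, WT and I593T are neighbours whose values overlapped, and N737H came last, apart from them.

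The N737H libraries were also the lowest of their letter in the sums of the keratinocyte and glandular markers, but not in those of all marker lists. The 7 keratinocyte markers summed to 3871 CPM with N737H in A and 3266 in B, against 4013 to 5649 in the other libraries of A and 4410 to 5100 in those of B. The 6 glandular epithelial markers summed to 5915 and 5166 CPM with N737H, against 6209 to 7029 in A and 5874 to 7124 in B. Of these 6, KRT7 and EPCAM had log2 fold changes above 0 with N737H (0.24 ± 0.27 and 0.12 ± 0.18 SE), and 4 were below 0. The fibroblast markers summed to 401 and 171 CPM with N737H (A and B), against 392 and 127 with WT. The melanocyte markers summed to 9.55 and 13.8 CPM with N737H, against 9.71 and 11.8 with WT. CARD14 with N737H stood at 444 CPM in A, the lowest of that letter, and at 1005 CPM in B, against 1127 and 978 with WT. The B library of N737H detected 21059 genes, more than any other. The part of these in the LCN2 values was not tested.

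RNASE7, the antimicrobial RNase, differed between the constructs mainly in A, where the WT library was high. It stood at 17.9 and 13.9 CPM with R820W (A and B), at 12.1 and 14.9 with N737H, at 15.2 and 19.99 with I593T and at 33.2 and 16.1 with WT. The A library of WT was above all others, and the B library of WT lay within the range of the variants. The means were 15.9 ± 2.85 CPM for R820W, 13.5 ± 1.94 CPM for N737H and 17.6 ± 3.37 CPM for I593T, against 24.6 ± 12.04 with WT (SD, n = 2 each). The log2 fold changes were -0.63 ± 0.34 (SE), -0.87 ± 0.34 and -0.49 ± 0.34 for R820W, N737H and I593T, and -0.66 ± 0.27 for the mean of the variants (edgeR adjusted p = 1.00 each). Within A the values were -0.89, -1.44 and -1.12 on the log2 CPM scale, and within B -0.22, -0.12 and 0.31. Without the A library of WT the fold changes became 0.02 for R820W, -0.20 for N737H and 0.17 for I593T, and that of the mean of the variants -0.0040. RNASE8, the close relative of RNASE7 with which reads could be shared, was listed at 0 counts in all 8 libraries. In GENCODE v29 (basic set) RNASE7 also lies within an intron of 1 of the 16 NDRG2 transcripts, on the opposite strand, and without strand use stated its counts cannot be told apart from intronic reads of NDRG2.

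DEFB1 was not detectable as an expressed gene at this depth. It had 3 counts in all, 1 in the B library of N737H and 1 in each WT library, and 0 in the other 5 libraries. A count of 0 allows a level of up to 3 counts, or 0.121 to 0.163 CPM in these libraries (counting error only), and all values lay under that limit, so no fold is given.

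**Figure D3:**
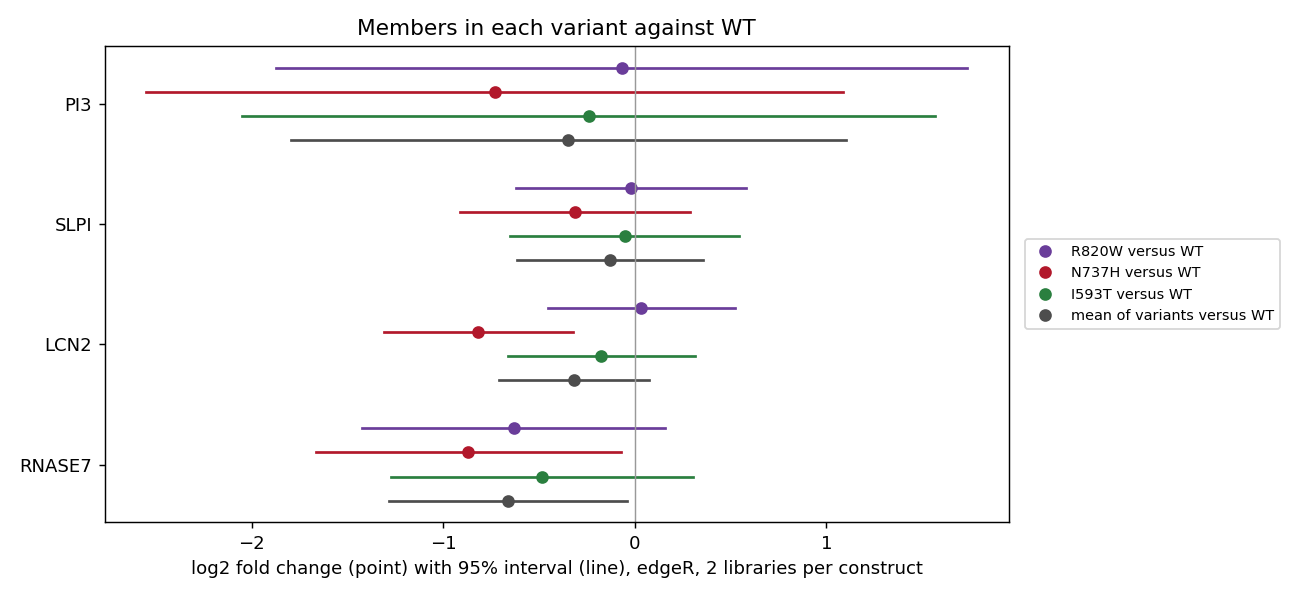
Log2 fold change with its 95% interval (edgeR, 2 libraries per construct) of the 4 tested members in each variant and in the mean of the variants, all against WT. The interval of LCN2 with N737H (-1.31 to -0.33) and that of RNASE7 with N737H (-1.66 to -0.07) and with the mean of variants (-1.28 to -0.04) lie below 0, and no value passed after adjustment. Without the A library of WT the 2 RNASE7 values became -0.20 and -0.0040.

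Over the 4 tested members, none passed against WT for R820W, N737H, I593T or the mean of the variants in fits of the construct alone with edgeR, DESeq2 or limma voom. With a letter term added, DESeq2 called PI3 with N737H (-0.82, adjusted p = 0.00852), and edgeR did not (-0.82, adjusted p = 0.782). At an unadjusted p under 0.05 there were 0, 2, 0 and 1 members, where 1.04%, 2.44%, 1.43% and 1.31% of all tested genes were. These counts come from the edgeR fit of the construct alone, as do the values below. The members for N737H were LCN2 and RNASE7, and that for the mean was RNASE7. With N737H all 4 fold changes were below 0, with a median of -0.78, where the median over all 14834 genes was -0.03. The medians were -0.04 for R820W and -0.21 for I593T, with -0.01 and -0.02 over all genes. LCN2 and RNASE7 had both N737H libraries below both WT libraries, 2 of 4 members where 12.4% of all genes did so. For RNASE7 the B libraries stood at 14.9 CPM with N737H and 16.1 with WT. Its N737H log2 fold change was -0.20 without the A library of WT. PI3 and LCN2 were lowest with N737H in A and in B, 2 of 4 members where 7.24% of all genes did so. With 4 members these shares describe the members and carry no test.

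**Figure D4:**
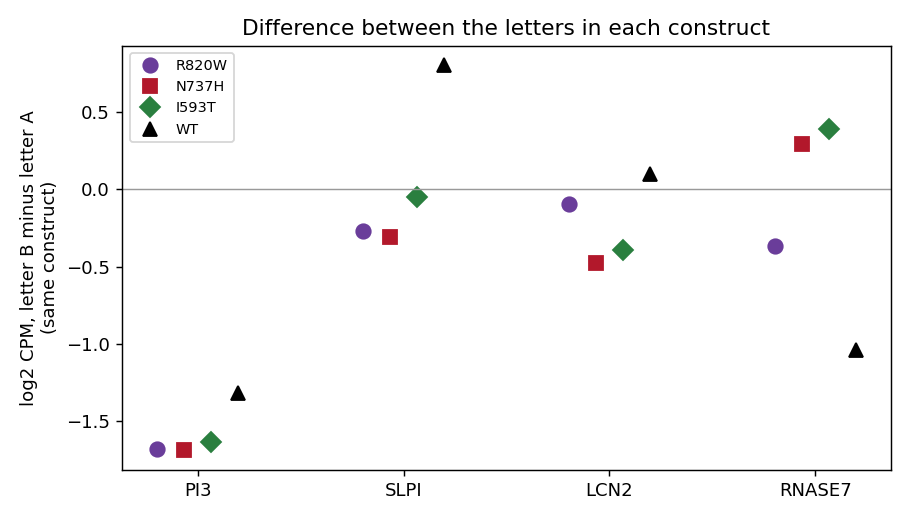
Difference in log2 CPM between letter B and letter A of the same construct for the 4 tested members, 1 point per construct. PI3 lies between -1.69 and -1.32 in all 4 constructs, while the WT points of SLPI (0.80) and RNASE7 (-1.04) lie apart from those of the variants.

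Genes that work with the members were taken as lists. Over all 14834 tested genes, 48.0% had fold changes above 0 with R820W, 45.8% with N737H and 45.6% with I593T. The counts of genes below WT in each list are to be read beside these shares and carry no test. Among the targets of the antiproteases, the neutrophil proteases ELANE, PRTN3 and CTSG averaged 0.111, 0.182 and 0.105 CPM. Serine proteases of the epidermis were expressed, with KLK5, a kallikrein that starts the shedding of corneocytes, at 87.2 CPM with N737H against 121 with WT (log2 fold change -0.48 ± 0.34 SE), and the matriptase gene ST14 at 40.9 against 43.4 (-0.09 ± 0.21). All 9 tested proteases had N737H values below WT, with a median of -0.48, 7 of 9 did so with R820W (median -0.14) and 8 of 9 with I593T (median -0.21), and 0 passed. Other protease inhibitors were lower for 10 of 14 with N737H, 7 of 14 with R820W and 11 of 14 with I593T, with medians of -0.26, -0.01 and -0.22 and 0 calls. SPINT2 and CSTB, their most abundant genes in CPM, had log2 fold changes of -0.15 ± 0.24 and -0.32 ± 0.28 with N737H. Of the other WAP-domain genes 5 of 14 were tested, with 4, 2 and 2 higher with R820W, N737H and I593T. The most abundant of them in CPM, WFDC2 and WFDC3, had values of -0.14 ± 0.42 and -0.67 ± 0.46 with N737H.

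Transglutaminases and the envelope proteins to which elafin is joined had 6 of 8 tested genes below WT with N737H (median -1.08), 6 of 8 with I593T (median -0.53) and 2 of 8 with R820W (median 0.15). TGM1 stood at 7.996 CPM with N737H against 16.3 with WT (log2 fold change -1.02 ± 0.63 SE), and SPRR1B, a cornified-envelope precursor, had -1.39 ± 0.27 with N737H, -0.71 ± 0.27 with I593T and -0.18 ± 0.27 with R820W. None of these passed. The list was selected for its relation to elafin with earlier results of these data known, in which SPRR1B already stood low with N737H.

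Of the 23 other antimicrobial genes found in the table, 7 could be tested. All 7 were below WT with N737H and with I593T, and 4 of 7 with R820W, with medians of -0.78, -0.98 and -0.01 and 0 calls. ADM and S100A9, the most abundant, averaged 70.4 and 32.7 CPM over the libraries. They had log2 fold changes of -0.11 ± 0.20 and -0.25 ± 0.53 (SE) with N737H, and -0.01 ± 0.20 and -0.22 ± 0.53 with I593T. The other 5 genes averaged 4.88 CPM (S100A8) or less. Of them DEFB103A, PGLYRP3, CHI3L1 and S100A7 were near the floor, at 0.339, 0.433, 0.432 and 0.584 CPM. The median for I593T is the value of S100A7 (-0.98 ± 1.35 SE). Of the lipocalin and iron genes, FTH1, a ferritin chain, had -0.49 ± 0.18 with N737H, -0.33 ± 0.18 with R820W and -0.34 ± 0.18 with I593T. FTL had -0.17 ± 0.16 with N737H, -0.28 ± 0.16 with R820W and -0.0049 ± 0.16 with I593T. SLC22A17, a receptor for LCN2, averaged 0.0555 CPM and was not tested. Of the RNase A family and its inhibitor 4 of 13 were tested, and all 4 were below WT with N737H, with RNH1, the RNase inhibitor, at -0.34 ± 0.26 and RNASE4 at -0.16 ± 0.48.

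Transcription factors that act on such genes had 13 of 19 below WT with N737H (median -0.17), 11 of 19 with R820W (-0.05) and 11 of 19 with I593T (-0.03). EHF and FOSL1, the most abundant in CPM, had -0.33 ± 0.19 and -0.10 ± 0.47 with N737H. Receptors and adaptors had 11 of 16 below WT with N737H (median -0.10), 5 of 16 with R820W (0.07) and 13 of 16 with I593T (-0.14). MYD88, the adaptor of IL-1 and Toll-like receptors, had -0.30 ± 0.15 with N737H, and the TNF receptor TNFRSF1A -0.38 ± 0.24. No gene of these lists passed against WT. Over all tested genes, 45.8% were above WT with N737H, 48.0% with R820W and 45.6% with I593T, so more genes were below WT than above it in general.

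**Figure D5:**
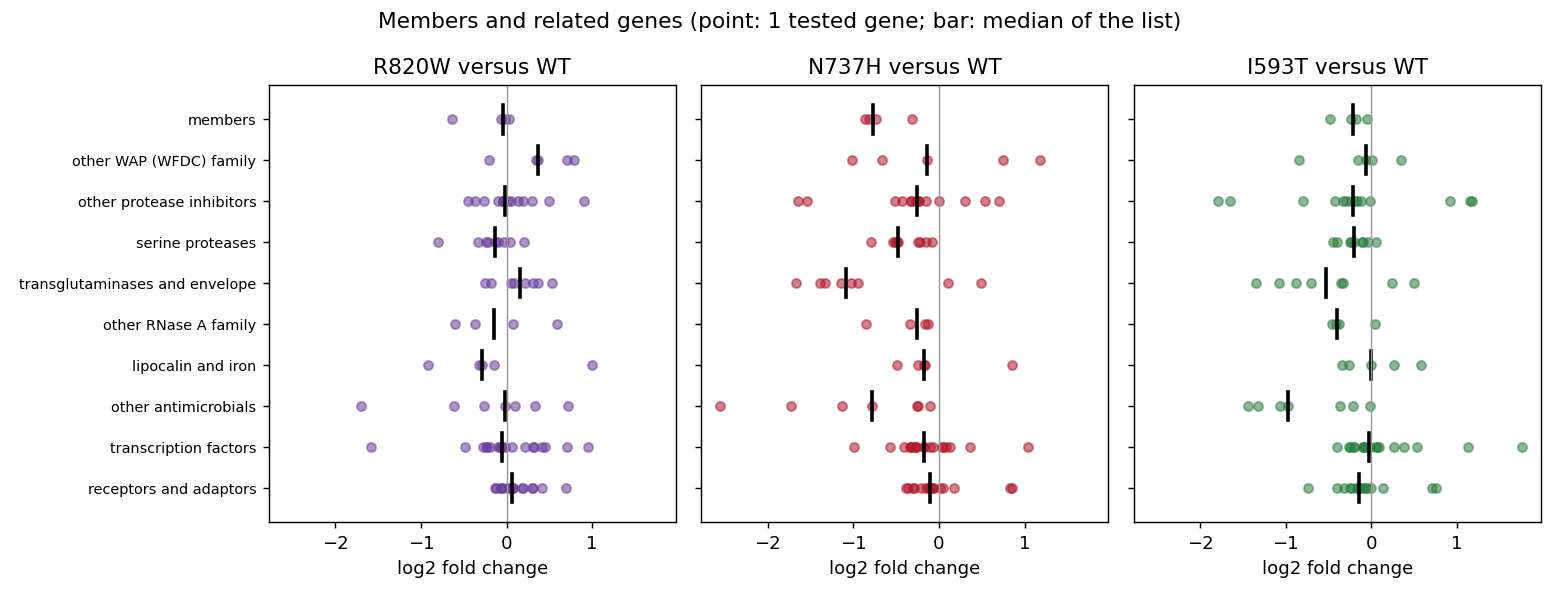
Log2 fold changes against WT of the members and of 9 lists of related genes, 1 panel per variant. Each point is 1 tested gene and the black bar is the median of the list, which for N737H is -0.78 for the members and -1.08 for transglutaminases and envelope proteins.

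Between the letters 5 of the 87 tested genes of these lists passed (5.75%), where 3.24% of all genes did. The serpin SERPINB3 was higher in B (44.7 against 14.0 CPM in A, log2 fold change 1.45 ± 0.27 SE, edgeR adjusted p = 0.0409), as was KLK5 (0.60 ± 0.11, adjusted p = 0.0398). SERPINA1, which like the members PI3 and SLPI inhibits neutrophil elastase, was lower in B (7.36 against 15.1 CPM, -1.02 ± 0.15, adjusted p = 0.0228). NFKB2, a subunit of NF-kB, was lower (-0.70 ± 0.13, adjusted p = 0.0380), and so was SPRR2A, a small proline-rich envelope protein (3.22 against 9.93 CPM, -1.64 ± 0.16, adjusted p = 0.00701).

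The genes whose log2 CPM followed each member most closely over the 8 libraries were found among 9583 genes of at least 5 CPM. For PI3 they were METTL21B (Pearson r = 0.99) and CD44 (0.98), a hyaluronan receptor. CD44 stood at 661 and 478 CPM with R820W (A and B), 591 and 426 with N737H, 618 and 464 with I593T and 702 and 488 with WT. Its letters thus did not overlap, with B below, as for PI3 and for 10% of all tested genes. CD44 was picked for following PI3, so this order is not a separate result. For SLPI they were RABAC1 (0.97) and ARMCX6 (0.96), for LCN2 TOMM40L (0.95) and CERS5 (0.94), and for RNASE7 C10orf2 (0.98) and RPSAP52 (0.96). The libraries share the letter and the construct, and with so many genes and 8 libraries the values are a description and carry no test.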

How the data were processed

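The counts are whole numbers of reads for each gene symbol, deposited as 1 table that had not been normalized. The labels' protocols give RNA extraction with a mirVana kit and libraries from a NEBNext low-input kit. The submitters' processing notes name hg19, FastQC, MACS2 and DESeq2 without roles or versions. The aligner, counting program, annotation and use of strand were not given in the sources used here, so reads shared by related genes cannot be checked. The members and all gene lists were chosen with earlier results of these data known.

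Genes were kept by filterByExpr in edgeR 4.0.16 (R 4.3.3), which left 14834, and counts were scaled by the trimmed mean of M values. All 8 libraries entered 1 quasi-likelihood fit of group means (4 residual degrees of freedom). The letters were compared in a fit with group and letter. Tests were two-sided. SEs come from the fold change and its F statistic. Within a letter, log2 CPM (prior count 2) was subtracted. Named are the 5 members, CARD14, the 2 most abundant genes of each list and those of its genes that passed, and the 2 genes most like each member. Others were chosen after their values were seen. These are the single proteases, markers and receptors given for their levels. The fit was tested on simulated data without a letter difference, in which 100 genes of at least 5 CPM were changed at each size. At a true log2 fold change of 1 up or down, it called 27 for R820W, 28 for N737H, 27 for I593T and 54 for the mean in the right direction. At a true log2 fold change of 2 it called 96, 94, 92 and 97. Most changes of the smaller size would thus be missed for a single variant. Alternatives were RLE scaling, 2 other filters on low counts (none, and a minimum of 10 counts in 6 or more libraries), DESeq2 1.42.0, limma 3.58.1 voom, removal of CARD14, a replicate block, only the groups compared, no group term for the letters, and each library left out. All pairs of libraries differed by more than sampling noise (smallest chi-square per gene 6.30). The p-values cover only how far these libraries differ, 2 to a group, since beyond the mention of 2 experiments nothing says that cultures were separate.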

Additional observations from a re-analysis of the deposited data

Results flagged for a closer look

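SLPI differed from WT in opposite directions in the letters. All 3 variants were above WT in A, by 0.29 to 0.57 on the log2 CPM scale, and below it in B, with differences of -0.82 to -0.43. The difference between the letters in the variants' distance from WT was -1.01 ± 0.24 on the log2 scale (SE), from an edgeR interaction of letter with variant that was chosen after the values were seen and takes the 3 variants as 1 group. It did not pass after adjustment (unadjusted p = 0.00202, adjusted p = 0.126). That test called 21 of 14834 genes and had 2559 at an unadjusted p under 0.05. RNASE7 had a value of the other sign in the same edgeR test (1.15 ± 0.37 SE, unadjusted p = 0.0121, adjusted p = 0.179). PI3 was at -0.35 ± 0.39 and LCN2 at -0.39 ± 0.50. Each letter holds 1 WT library, so the 3 differences within a letter share it (SLPI at 134 CPM in B and 76.6 in A).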

How the results depend on the processing

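Of 328 values of the 4 tested members under an alternative, 304 kept their direction and their side of the threshold, 22 changed direction, 1 gained a call and 1 lost it. The gained call was PI3 with N737H against WT in DESeq2 with the replicate block (-0.82, adjusted p = 0.00852), while edgeR with the replicate block gave -0.82 (adjusted p = 0.782). LCN2 with N737H had adjusted p-values of 0.0814 to 1.00 over its alternatives, and RNASE7 of 0.573 to 1.00. SLPI turned to 0.016 under the stricter filter and 0.034 with voom for R820W, and to 0.0029 with voom for I593T. With each library left out, the log2 fold changes of R820W against WT ran from -1.14 to 0.78 for PI3, -0.33 to 0.44 for SLPI, -0.010 to 0.10 for LCN2 and -1.06 to 0.019 for RNASE7. Those of N737H ran from -1.83 to 0.13 for PI3, -0.61 to 0.14 for SLPI and -1.31 to -0.20 for RNASE7, and those of I593T from -1.28 to 0.61 for PI3, -0.35 to 0.40 for SLPI, -0.39 to 0.0054 for LCN2 and -0.92 to 0.17 for RNASE7. For the mean of the variants they ran from -0.86 to 0.51 for PI3, -0.43 to 0.33 for SLPI and -1.10 to -0.0040 for RNASE7. Between the letters they ran from -1.68 to -1.54 for PI3, -0.21 to 0.16 for SLPI and -0.39 to 0.10 for RNASE7. The cause was not tested.

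Counts of called genes moved from 0 to 2, 2, 8 and 2 for R820W, N737H, I593T and the mean without a filter, to 3 for I593T with DESeq2, and to 1, 20, 3 and 3 in DESeq2 with the replicate block. They ran from 0 to 3 for I593T and 0 to 1 for the mean with each library left out. Between the letters the 480 calls became 760 without a filter, 1287 with DESeq2, 1324 with no group term, and 0 to 1069 with each library left out. They were 10 without the B and 0 without the A library of R820W, 32 and 31 without the B and A libraries of I593T, and 1010 and 1069 without those of WT. Fits that leave out a library assume that the lone sample of its group varies like the others. Libraries of the same letter had correlated deviations in 5 of 6 pairs of groups (0.31 to 0.41) but not for WT with N737H (0.024). The main fits against WT have no letter term, since no label says that the letters are the 2 experiments.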
